A study of Mus musculus with 6 samples.

Results

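Small nucleolar RNAs (snoRNAs) and small Cajal body RNAs (scaRNAs) were taken as every gene with a probe set of its own whose symbol starts with Snord, Snora or Scarna. They came to 78 genes of the 22180 genes with a probe set of their own, carried by 81 of 41345 probe sets. Of these, 47 were box C/D snoRNAs (Snord), 26 were H/ACA snoRNAs (Snora) and 5 were scaRNAs (Scarna). Where a gene had more than 1 probe set, the one with the highest mean was used. The blood came from 3 mice housed for 2 weeks in an enriched environment (EE), a larger cage with a wheel, a nest house and a tunnel, and from 3 mice housed for 2 weeks in a standard environment (SE) with bedding and nesting material. All 6 were male outbred CD1 mice aged 9 weeks and had no inflammatory insult. Whole blood was drawn by cardiac puncture and each mouse was measured on 1 Affymetrix array. Mice were caged in groups, and whether the 3 of a group shared a cage was not given in the sources used here.

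A snoRNA is a short RNA that pairs with ribosomal RNA and brings an enzyme to 1 base of it. Box C/D snoRNAs carry fibrillarin, which methylates the ribose, and H/ACA snoRNAs carry dyskerin, which turns uridine into pseudouridine. ScaRNAs do the same to the RNAs of the spliceosome in Cajal bodies. Most mammalian snoRNAs have no promoter of their own: they are cut from the introns of a host gene, often one for a ribosomal protein or a noncoding RNA such as Gas5 and the Snhg genes, so the level of a snoRNA also depends on processing and on the stability of its particle.

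Of the 78 genes, 18 lay within a ribosomal protein gene (12 box C/D and 6 H/ACA), 34 within another protein gene, 16 within a long noncoding RNA gene and 6 within several overlapping genes. The other 4 (Snord13, Snord89, Snord118 and Scarna2) lay within no gene of the RefSeq table. Snhg12 spanned 4 of the genes (Snord99, Snora44, Snora61 and Snora16a), and 11 genes spanned more than 1. The annotated RNAs were 48 to 221 bases long with a median of 68.0 in box C/D snoRNAs, 56 to 205 with a median of 118.5 in H/ACA snoRNAs and 61 to 248 with a median of 71.0 in scaRNAs.

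An intronic snoRNA is transcribed from the start of its host gene, so the starts of 5 hosts of snoRNAs described here are shown, from 40 bases before to 20 bases after the annotated start (RefSeq, GRCm38.p6). Rps12 holds Snora33, Rpl13a holds Snord35a, 2410006H16Rik holds Snord49b, Snhg12 holds Snord99 and Ncl, the gene of nucleolin, holds Snord82. Capitals mark the longest run of at least 6 bases that are each C or T and that reaches to within 10 bases of the start, on the strand of the gene. Ribosomal protein mRNAs are known to begin with such a pyrimidine tract. The windows lie at chr10:23787190-23787249 (minus strand) for Rps12, chr7:45128726-45128785 (minus) for Rpl13a, chr11:62602837-62602896 (plus) for 2410006H16Rik, chr4:132308638-132308697 (plus) for Snhg12 and chr1:86359436-86359495 (minus) for Ncl.
Rps12: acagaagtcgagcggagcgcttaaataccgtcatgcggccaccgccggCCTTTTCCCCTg
Rpl13a: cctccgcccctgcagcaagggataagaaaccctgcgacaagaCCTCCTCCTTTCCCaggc
2410006H16Rik: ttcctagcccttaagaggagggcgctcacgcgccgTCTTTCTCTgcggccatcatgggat
Snhg12: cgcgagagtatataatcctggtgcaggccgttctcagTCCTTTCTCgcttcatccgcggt
Ncl: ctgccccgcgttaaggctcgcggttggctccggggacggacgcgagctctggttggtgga
The run was 11, 14, 9 and 9 bases long in the first 4, and Ncl held none in this window. Of other hosts of snoRNAs described here, not shown, Gm36220 held a run of 6 bases, and Wdr43 and the ribosomal protein gene Rpsa held none. Such a run was found in 24 of the 50 spanning genes with a promoter window (48.0%), in 39 of 64 ribosomal protein genes (60.9%) and in 8833 of all 27025 genes of the promoter table (32.7%). The match is a description of letters, not of a working site.

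The values are log2 intensities after robust multiarray average (RMA) normalization, and their size depends on the probes, so a gene is compared between mice and not with another gene. In all, 33 of the 78 genes passed the study's minimum of a mean of 100 on the linear scale (6.64 on the log2 scale): 19 box C/D snoRNAs, 11 H/ACA snoRNAs and 3 scaRNAs. The other 45 were below it. The nearest gene above the minimum was Snora61 with a mean of 6.92, and the nearest below it was Snora74a with a mean of 6.62. Levels in whole blood cannot tell fewer cells of a type from less RNA per cell.

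Among all probe sets the third EE mouse stood apart: it lay at 29.28 on the first principal component (49.5% of the variance), against -10.38 to 2.56 for the other 5 mice, and its mean correlation with the others was 0.932, against 0.956 to 0.965. Some markers of blood cells also differed between the groups at unadjusted p under 0.05 (limma). In EE, 6 of 7 neutrophil genes and 1 of 5 monocyte genes were higher, where 1.46% of all probe sets tested were. Both measured red cell genes, of 7 listed, were lower, where 3.14% of all were. None of the B cell, T cell, natural killer cell or platelet genes in the fit passed. After adjustment no marker passed, the lowest adjusted p being 0.720 (S100a9 and Csf3r, limma). The heart and skeletal muscle, liver and fat markers ranged between 3.67 and 7.02. The part of cell composition in any result below was not tested.

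The question was whether 2 weeks of enrichment changed snoRNAs in blood. In limma's moderated test over all 6154 probe sets with an Entrez ID and a mean above the minimum, 2 of the 33 genes were higher in EE mice at unadjusted p under 0.05, where 1.46% of all probe sets were, and 0 were lower, where 3.14% of all were. After Benjamini-Hochberg adjustment over the whole table none of the 33 passed 0.05, nor did any other probe set (0.0%), and the lowest adjusted p among the 33 was 0.821. No gene reached the study's fold change of 2 with all mice, the largest rise being 0.74 on the log2 scale. Mice were the replicates, n = 3 in each group.

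Snora68, an H/ACA snoRNA, guides pseudouridylation of the large ribosomal RNA in humans. Its log2 values were 7.30, 7.12 and 7.37 in EE mice 1, 2 and 3, against 6.86, 6.85 and 6.83 in SE mice 1, 2 and 3. All 3 EE mice lay above all 3 SE mice, and the SE mice differed by far less than the EE mice did. The means were 7.26 ± 0.13 in EE and 6.85 ± 0.02 in SE (SD, n = 3 each), a log2 difference of 0.41 (95% interval 0.12 to 0.70, unadjusted p = 0.0113, adjusted p = 0.821, limma). It was the only gene of the 33 without overlap between the groups; over all probe sets tested, 3.92% had every EE value above every SE value and 5.75% every EE value below.

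Snord99, a box C/D snoRNA within Snhg12 (chr4:132310703-132310758), guides ribose methylation of the large ribosomal RNA in humans. It was measured at 9.37, 9.48 and 9.16 in EE mice, against 8.22, 9.19 and 8.38 in SE mice. The second SE mouse just passed the third EE mouse, and the other SE mice lay well below all EE mice. The means were 9.34 ± 0.16 in EE and 8.59 ± 0.52 in SE (SD, n = 3 each), a log2 difference of 0.74 (95% interval 0.16 to 1.32, unadjusted p = 0.019, adjusted p = 0.904, limma). Its unadjusted p was 0.0531 without EE mouse 2, 0.0694 without SE mouse 1 and 0.0646 without SE mouse 3, whereas Snora68 kept an unadjusted p under 0.05 with each mouse left out (at most 0.0403). Snord99 also fell short of the threshold with array weights, where its difference was 0.44 (unadjusted p = 0.0881, limma). Without limma's moderation of the spread it did not pass either.

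**Figure D1:**
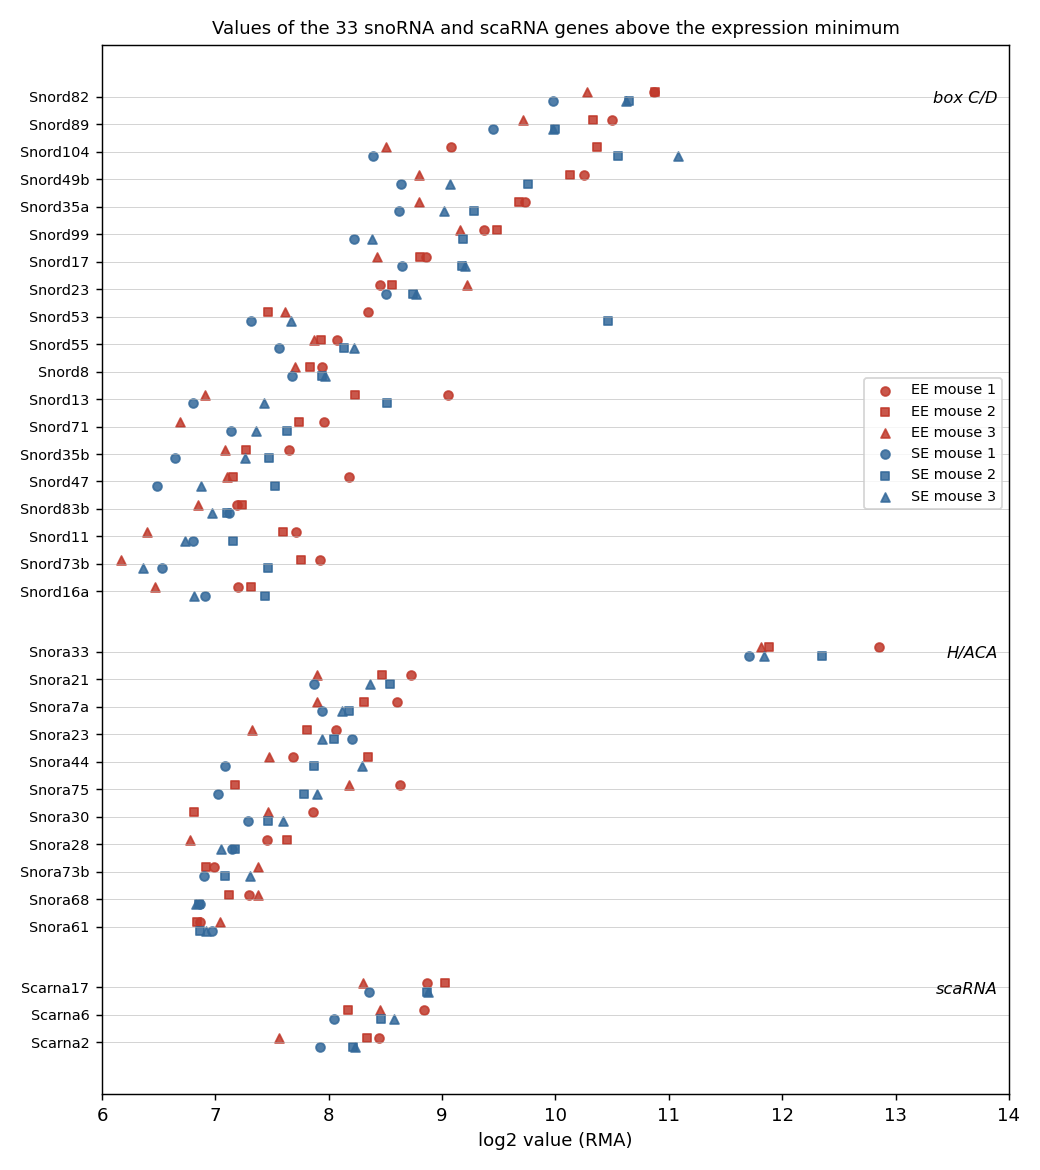
Log2 values (x axis, RMA) of the 33 snoRNA and scaRNA genes above the minimum (y axis, by class and then by mean), 1 point per mouse, with EE mice in red above SE mice in blue. Only Snora68 separates the groups, Snord53 has a single far value in SE mouse 2, and the horizontal position should not be compared between genes.

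Of the 33 genes, 22 had a log2 difference above 0 and 11 below 0 (66.7% above, against 41.8% of all probe sets tested), and their median was 0.11, against -0.03 over all probe sets tested. The median was 0.20 in the 19 box C/D snoRNAs, 0.11 in the 11 H/ACA snoRNAs and 0.03 in the 3 scaRNAs. With 1 mouse left out the box C/D median was lowest at 0.04 (SE mouse 1 left out), the H/ACA median at 0.02 (EE mouse 1) and that of all 33 genes at -0.01 (SE mouse 1). All 3 were highest when EE mouse 3 was left out, at 0.46, 0.33 and 0.33 in that order. The box C/D and H/ACA medians differed by 0.10, less than the 0.25 by which the same difference varied between mice of a group (pooled SD), and by -0.04 over all 78 genes with no minimum. These medians describe the genes and were not tested, since snoRNAs measured in the same mice are not replicates. The 95% interval lay within 1 of 0 on the log2 scale for 23 of the 33 genes, so a change of 2-fold was outside the interval for these 23 only.

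**Figure D2:**
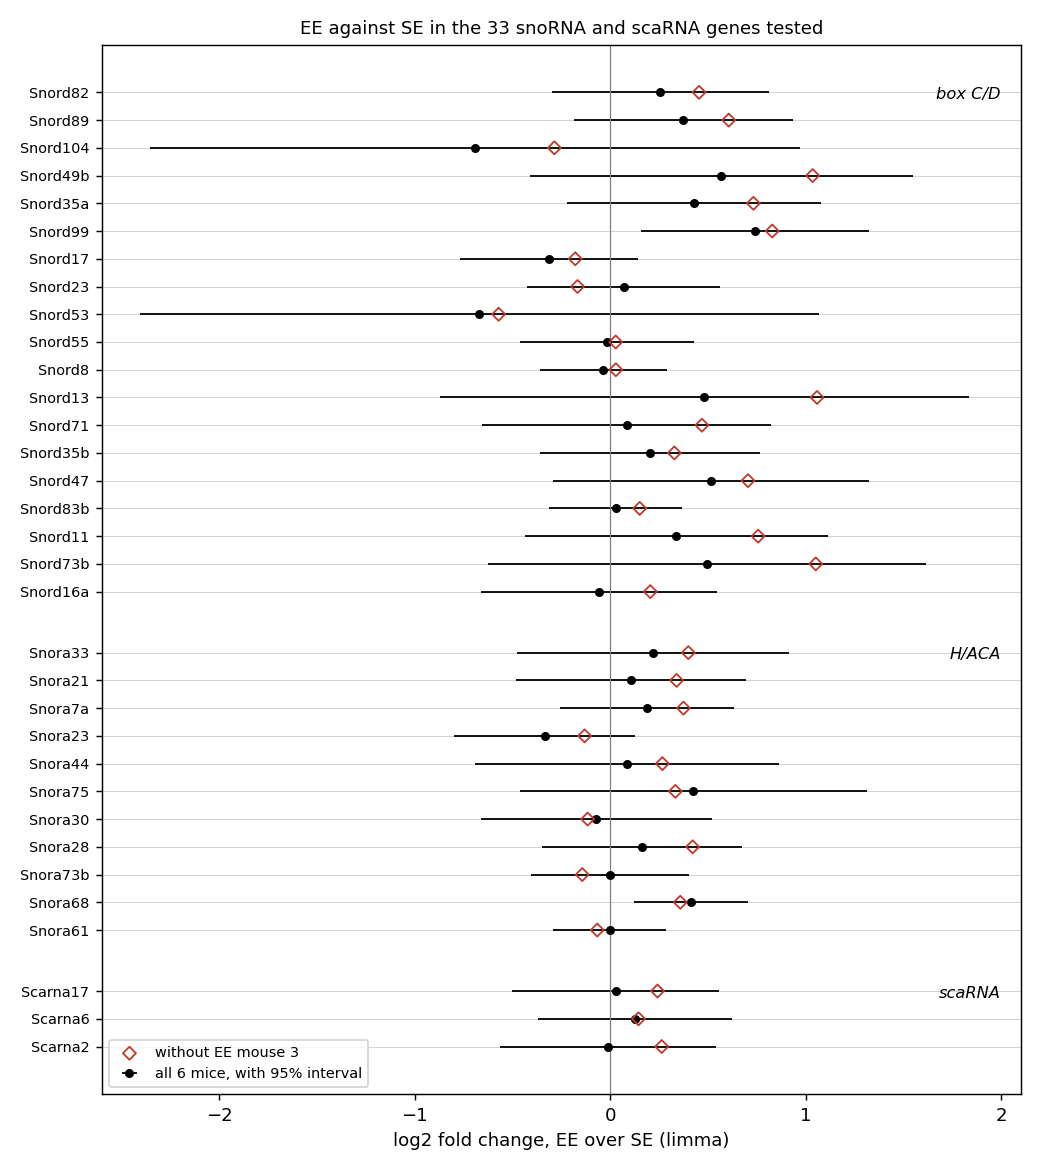
Log2 fold change of EE over SE (x axis) for the 33 genes tested (y axis, by class), in black with the 95% interval of limma's fit to all 6 mice and as red diamonds without EE mouse 3. Only the intervals of Snord99 and Snora68 lie above 0, and most diamonds lie to the right of the black points.

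The spread between mice was the plainest feature of these genes. The difference between the highest and the lowest mouse had a median of 0.97 on the log2 scale in the 33 genes, against 0.56 over all probe sets tested. It was over 1 in 16 of the 33 genes (48.5%), against 12.7% of all probe sets, 5.36% of 56 cytoplasmic ribosomal protein probe sets and 8.16% of 49 microRNA gene probe sets. By class it was over 1 in 12 of 19 box C/D snoRNAs, 4 of 11 H/ACA snoRNAs and 0 of 3 scaRNAs. Below the minimum it was over 1 in 13 of 45 genes (28.9%), and the share among all probe sets there was not counted. The classes ran the other way there, with more H/ACA than box C/D snoRNAs over 1. The widest were Snora69 (1.59) and Snora2b (1.44), followed by Snord110 (1.42). The SD between mice of a group had a median of 0.43 in EE and 0.31 in SE for the 33 genes, against 0.22 in EE and 0.13 in SE for all probe sets. This spread is what the tests above were set against. RNA was extracted with the RNeasy Protect Animal Blood System, and how much of such short RNAs it recovered from each mouse was not given. The part of this recovery in the spread was not tested and cannot be told apart from levels in blood.

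The spread followed the mouse. SE mouse 1 was the lowest of the 6 mice in 18 of the 33 genes (54.5%), against 9.67% of all probe sets and 30.4% of the ribosomal protein probe sets. It lay under both other SE mice in 25 of the 33 genes (75.8%), against 34.8% of all probe sets. EE mouse 1 was the highest in 16 (48.5%), against 25.5% of all. EE mouse 3 was the lowest in 11 (33.3%), against 50.1% of all, and lay under both other EE mice in 25 (75.8%), against 63.4% of all.

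Relative to the mean of the SE mice, the median of the 33 genes was 0.45 in EE mouse 1, 0.21 in EE mouse 2, -0.18 in EE mouse 3, -0.32 in SE mouse 1, 0.19 in SE mouse 2 and 0.04 in SE mouse 3. The median of all probe sets was 0.07, 0.04, -0.18, 0.02, 0.01 and -0.02 in the same mice. Among these 33 genes, all above the minimum, the box C/D median spread further over the mice than the H/ACA median. The box C/D median was 0.52, 0.36 and -0.22 in EE mice 1, 2 and 3 and -0.36, 0.31 and -0.02 in SE mice. That of the H/ACA genes was 0.41, -0.08 and -0.15 in EE mice and -0.16, 0.05 and 0.04 in SE mice. All 19 box C/D genes were above the SE mean in SE mouse 2, and only 1 was in SE mouse 1. The median of each blood cell marker list lay between -0.30 (B cells) and 0.38 (platelets) of the SE mean in SE mouse 1, and their part in its low snoRNA values was not tested.

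**Figure D3:**
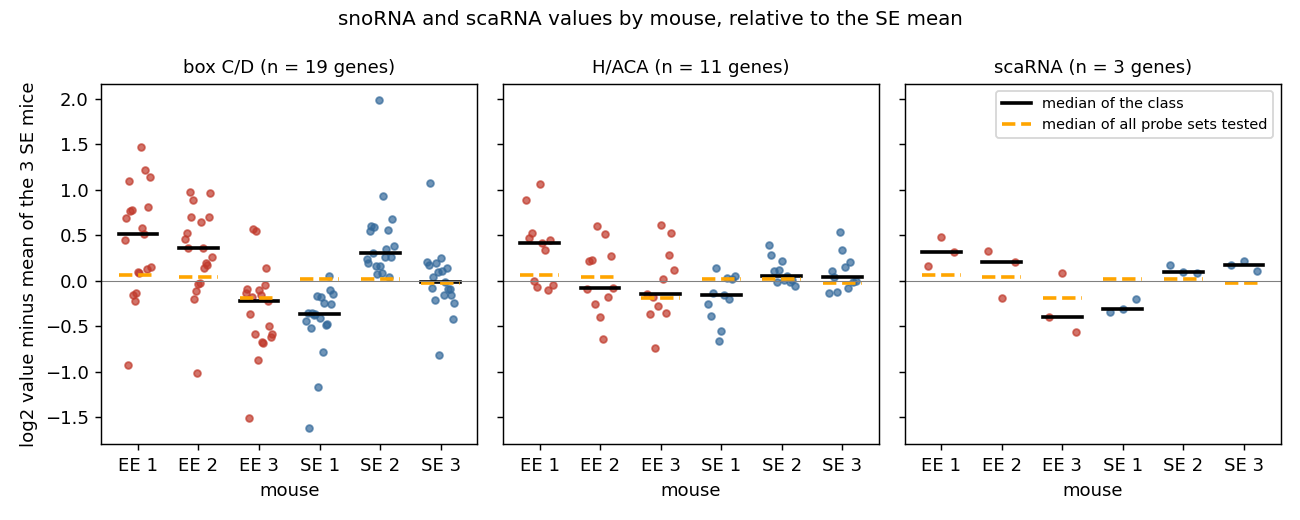
Difference of each gene (point) from its own SE mean on the log2 scale (y axis), in each mouse (x axis), in 3 panels by class, EE in red and SE in blue. Black bars are class medians and dashed orange bars the median of all probe sets tested: the box C/D median is at 0.52 in EE mouse 1 and -0.36 in SE mouse 1, while the median of all probe sets is close to 0 in both.

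Both groups held a mouse with low snoRNA values, and the comparison was repeated without each. These mice were chosen by the same values that are compared. Leaving out EE mouse 3 thus tends to raise the EE means, and leaving out SE mouse 1 the SE means. The counts show how far the result depends on these mice and are no test of enrichment. In EE mouse 3 the median relative to the SE mean was -0.18 both in the 33 genes and over all probe sets. Without EE mouse 3, 10 of the 33 genes were higher in EE at unadjusted p under 0.05, where 6.68% of all probe sets were, and 0 were lower, where 4.84% were. They were Snord11, Snora28, Snord35a, Snora68, Snord49b, Snord73b, Snord89, Snord99, Snora7a and Snord71, with log2 differences between 0.36 (Snora68) and 1.05 (Snord73b). The median of the 33 genes was then 0.33, against 0.06 over all probe sets. None passed after adjustment, the lowest adjusted p being 0.315 for Snord11. Without SE mouse 1, 1 gene was higher (Snora68), where 2.81% of all probe sets were, and 2 were lower (Snord104 by -1.50 and Snord17 by -0.49), where 1.71% were, the lowest adjusted p was 0.99 and the median of the 33 genes was -0.01. With the arrays weighted by their quality in limma, 6 of the 33 genes were higher, where 10.7% of all probe sets were, and 2 were lower, where 7.51% were. Under these weights 97 of the 6154 probe sets passed after adjustment, none of them among the 33 genes, whose lowest adjusted p was 0.0854.

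Of the box C/D snoRNAs, Snord89 (chr1:39548747-39548840), which lies within no annotated gene, had log2 values of 10.50, 10.33 and 9.72 in EE mice, against 9.45, 10 and 9.98 in SE mice. Snord49b had 10.25, 10.13 and 8.79 in EE mice, against 8.64, 9.76 and 9.07 in SE mice. Snord35a, one of the Rpl13a snoRNAs known from hamster and mouse cells as mediators of the toxicity of saturated fat, had 9.73, 9.68 and 8.79 in EE mice, against 8.62, 9.28 and 9.01 in SE mice. In all 3 genes EE mice 1 and 2 were above every SE mouse, and EE mouse 3 lay among the SE mice. This was the pattern of 13 of the 33 genes (39.4%) as far as EE mice 1 and 2 go, against 21.9% of all probe sets. The log2 differences with all mice were 0.37 ± 0.24 for Snord89, 0.57 ± 0.42 for Snord49b and 0.43 ± 0.28 for Snord35a (standard error, n = 3 each), none past the test.

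Snord82, a snoRNA within Ncl, had 10.87, 10.88 and 10.28 in EE mice, against 9.98, 10.65 and 10.62 in SE mice, again with the lowest value in SE mouse 1. Snord13 (U13, chr8:31149861-31149958) has a promoter of its own and helps the acetyltransferase Nat10 to modify the small ribosomal RNA. It ranged over 2.25 on the log2 scale, with 9.05, 8.23 and 6.91 in EE mice, against 6.80, 8.52 and 7.43 in SE mice. EE mouse 3 and SE mouse 1 had the lowest values of their groups, and the difference of 0.48 had an interval of -0.87 to 1.83. Nat10 itself differed by -0.16 on the log2 scale and did not pass (unadjusted p = 0.261, adjusted p = 0.993, limma).

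The widest ranges of all were those of Snord53 and Snord104, both box C/D snoRNAs. Snord53, within Wdr43 (chr17:71640889-71640956), had 8.35, 7.47 and 7.61 in EE mice, against 7.31, 10.46 and 7.66 in SE mice. SE mouse 2 was higher than every other mouse by over 2 on the log2 scale, and the range of 3.15 was the widest of the 33 genes. With all mice its difference was -0.67 (interval -2.40 to 1.07, limma), and without SE mouse 2 it was 0.32. Snord92, which also lies within Wdr43, was below the minimum and stayed between 3.16 and 3.36, and Wdr43, a factor of ribosome synthesis, was between 7.09 and 7.88 in the 6 mice. Snord104 (chr11:106500991-106501063), within the noncoding gene Gm36220, had 9.08, 10.37 and 8.50 in EE mice, against 8.39, 10.55 and 11.08 in SE mice. Its difference was -0.69 with all mice (interval -2.35 to 0.97, unadjusted p = 0.364, limma), and SE mouse 1 was again the lowest of the 6 mice.

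Among the H/ACA snoRNAs, Snora33 had 12.85, 11.88 and 11.82 in EE mice, against 11.71, 12.35 and 11.84 in SE mice. Its other probe set, below the minimum, had 5.15, 4.83 and 4.80 in EE mice, against 4.55, 4.80 and 4.91 in SE mice. Both sets were highest in EE mouse 1 and lowest in SE mouse 1. Snora21, within Rpl23, had 8.72, 8.47 and 7.89 in EE mice, against 7.87, 8.54 and 8.37 in SE mice. Snora7a, within Rpl32, had 8.6, 8.31 and 7.89 in EE mice, against 7.94, 8.18 and 8.11 in SE mice. The groups overlapped in all 3 genes. Snora23, within the importin gene Ipo7, ran the other way, with 8.07, 7.81 and 7.32 in EE mice, against 8.21, 8.05 and 7.94 in SE mice, a difference of -0.33 (unadjusted p = 0.134, limma). It was highest in SE mouse 1, the only one of the 33 genes that was.

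The scaRNAs were close to level. Scarna17 had 8.86, 9.03 and 8.30 in EE mice, against 8.36, 8.87 and 8.88 in SE mice, and its other probe set had 7.89, 8.0 and 7.38 in EE mice, against 7.34, 7.98 and 7.92 in SE mice, with the low values in the same mice. Scarna6 had 8.84, 8.17 and 8.45 in EE mice, against 8.05, 8.46 and 8.58 in SE mice. Scarna2, which has a promoter of its own, had 8.44, 8.33 and 7.56 in EE mice, against 7.92, 8.21 and 8.23 in SE mice. Their log2 differences were 0.03, 0.13 and -0.01 in that order, with standard errors of 0.23, 0.21 and 0.24, and the sign of the last turned under other scalings of the arrays.

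Some snoRNAs varied little. The range over the 6 mice was 0.20 for Snora61, 0.29 for Snord8, 0.39 for Snord83b, 0.48 for Snora73b and 0.54 for Snora68. Snora73b (U17), which acts in the cutting of the ribosomal precursor RNA rather than as a guide, had 6.99, 6.92 and 7.38 in EE mice, against 6.90, 7.09 and 7.31 in SE mice. It was highest in EE mouse 3, which was the lowest mouse for 11 of the 33 genes. The interval of the difference was -0.41 to 0.40 for Snora73b and -0.29 to 0.28 for Snora61.

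Members that lie within 1 gene ran apart in some genes and alike, at least in part, in others. Within Ncl, Snora75 had 8.63, 7.17 and 8.18 in EE mice, against 7.02, 7.78 and 7.90 in SE mice, whereas Snord82 was near equal in EE mice 1 and 2. Within Snhg12, Snora44 had 7.68, 8.35 and 7.47 in EE mice, against 7.09, 7.87 and 8.29 in SE mice, and its difference was 0.08 where that of Snord99 was 0.74. Snora61, in the same gene, was flat. Snhg12 itself was below the minimum, at 5.0, 4.63 and 4.26 in EE mice and 4.83, 4.68 and 4.85 in SE mice. By contrast, Snord65, which shares 2410006H16Rik with Snord49b, had 6.97, 6.83 and 5.86 in EE mice, against 6.31, 6.45 and 6.25 in SE mice, and both were high in EE mice 1 and 2 and low in EE mouse 3. Snord49a, in the same gene, differed from both. It had 5.48, 5.25 and 4.93 in EE mice, against 5.22, 5.64 and 5.14 in SE mice, and was highest in SE mouse 2. Fitted without a minimum, the difference was -0.12 for Snord49a, 0.22 for Snord65 and 0.57 for Snord49b. Snora73a, which shares Snhg3 with Snora73b, had 6.26, 6.04 and 6.48 in EE mice, against 5.66, 6.14 and 6.51 in SE mice, and in both the lowest mouse was SE mouse 1 and the highest were EE mouse 3 and SE mouse 3. Snord65, Snord49a and Snora73a were below the minimum.

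**Figure D4:**
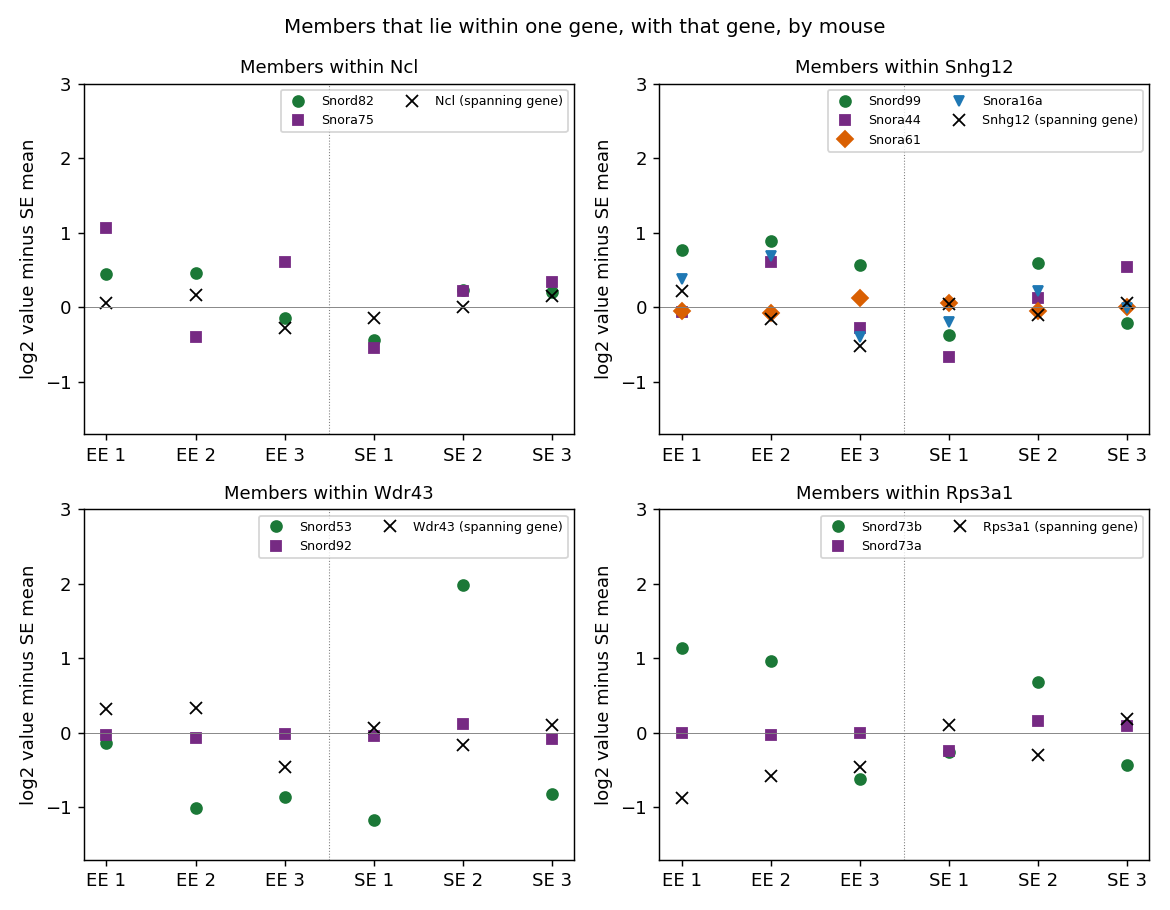
Log2 value minus the SE mean (y axis) by mouse (x axis, EE left of SE) for members within Ncl, Snhg12, Wdr43 and Rps3a1, with the spanning gene as crosses. In these 4 genes the members take different courses, and Snord53 in SE mouse 2 lies far above both Snord92 and Wdr43. Snord92, Snord73a, Snora16a and Snhg12 were below the expression minimum, and the crosses of Rps3a1 may measure a copy of the gene.

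For 17 members the spanning gene was also above the minimum, which gave 16 different genes. The snoRNA or scaRNA had the wider range over the mice in 15 of the 17 pairs, with a median of 0.90 for the members and 0.60 for the spanning genes. The median log2 difference was 0.09 in these members and -0.04 in the spanning genes. Of the 16 spanning genes, 0 were higher and 2 were lower at unadjusted p under 0.05, where 1.46% and 3.14% of all probe sets were. The value of Rps3a1, counted among these 2, is uncertain, as given below. Eif5, a translation initiation factor that spans Snora28, had 10.83, 10.83 and 11.01 in EE mice, against 11.30, 11.56 and 11.32 in SE mice (difference -0.50, unadjusted p = 0.00583, adjusted p = 0.763, limma). Snora28 had a difference of 0.16 that did not pass.

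Rps3a1, which spans Snord73b, had 7.86, 8.15 and 8.28 in EE mice, against 8.83, 8.44 and 8.92 in SE mice (difference -0.64, unadjusted p = 0.0079, adjusted p = 0.805, limma). Snord73b had 7.92, 7.75 and 6.17 in EE mice, against 6.53, 7.47 and 6.36 in SE mice, a difference of 0.50 that did not pass. The other Rps3a1 probe set, below the minimum, had 4.71, 5.0 and 4.86 in EE mice, against 5.19, 4.67 and 4.68 in SE mice and did not share the fall. By its number this dim probe set stands next to those of Snord73a and Snord73b, and the brighter one does not. Ribosomal protein genes have near-identical copies that probes can share. The brighter probe set may thus not measure the gene that spans Snord73b, and the Rps3a1 value is uncertain.

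**Figure D5:**
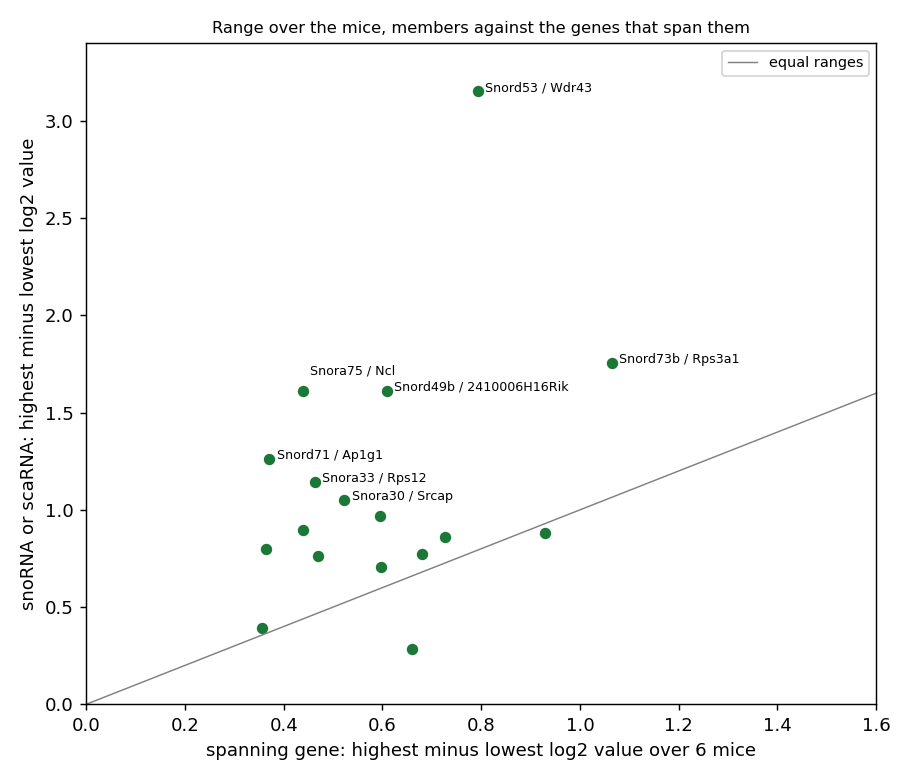
Highest minus lowest log2 value over the 6 mice for the snoRNA or scaRNA (y axis) against its spanning gene (x axis), 1 point for each of the 17 pairs, with a line at equal ranges. The axes differ in scale, 15 of 17 points lie above the line, and Snord53 and Wdr43 are farthest from it. For the pair of Snord73b and Rps3a1 the value of the spanning gene is uncertain.

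Snord47 and its neighbours in Gas5, a noncoding gene known for growth arrest, are spanned by several genes. Snord47 had 8.18, 7.16 and 7.10 in EE mice, against 6.49, 7.52 and 6.87 in SE mice, and EE mouse 1 and SE mouse 1 were the 2 extremes. Snord8 had 7.94, 7.84 and 7.70 in EE mice, against 7.68, 7.94 and 7.96 in SE mice. Snord83b, within Rpl3, had 7.19, 7.24 and 6.85 in EE mice, against 7.12, 7.10 and 6.97 in SE mice. Snora61 had 6.87, 6.83 and 7.04 in EE mice, against 6.97, 6.86 and 6.91 in SE mice.

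Of the proteins that snoRNAs work with, those above the minimum did not pass the test, and the others were not tested. Of the core box C/D proteins, Nop56 (difference 0.05) and Snu13 (-0.05) were in the fit, and of the core H/ACA proteins, dyskerin (Dkc1, -0.31) and Nop10 (0.00) were. Dkc1 had 7.22, 7.53 and 6.86 in EE mice, against 7.54, 7.60 and 7.42 in SE mice. None of these 4, of 2 Cajal body proteins (Tgs1 and Parn), of 9 ribosome synthesis genes and of 3 noncoding host RNAs (Snhg17, Snhg20 and Zfas1) was higher or lower at unadjusted p under 0.05. Of all probe sets tested, 1.46% were higher and 3.14% lower, so few calls would be found among so few genes. Nop58, Nhp2 and Gar1 were below the minimum, as were the other measured Cajal body proteins. Of the 10 assembly factors 9 were measured and 0 were above the minimum, and fibrillarin had no probe set of its own.

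Below the minimum, the groups did not overlap for 2 of the 45 genes, 1 higher and 1 lower in EE. The share among all probe sets below the minimum was not counted. Among the probe sets tested above it, 3.92% had every EE value higher and 5.75% every EE value lower. Snora62, an H/ACA snoRNA within Rpsa, had 6.82, 6.55 and 6.54 in EE mice, against 5.61, 6.23 and 6.25 in SE mice. Snora2b, within Kansl2, had 4.20, 4.11 and 3.50 in EE mice, against 4.33, 4.31 and 4.93 in SE mice, low values at which the array tells little. Fitted without a minimum over 25341 probe sets, 3 of the 78 genes were higher in EE (Snora68, Snord99 and Snora62), where 1.59% of all were, and 1 was lower (Snora2b), where 1.73% were. Of the 45 genes below the minimum, EE mouse 3 was the lowest mouse in 20 (44.4%), against 15.2% of the 19187 probe sets with an Entrez ID below it, and SE mouse 1 was the lowest in 14 (31.1%), against 19.8%. EE mouse 1 was the highest in 21 (46.7%), against 11.2%. EE mouse 3 was thus more often the lowest than SE mouse 1 below the minimum, and less often above it.

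Snora74a, just below the minimum, had 6.66, 6.81 and 6.72 in EE mice, against 5.83, 7.11 and 6.55 in SE mice. Snora35, which lies in the serotonin receptor gene Htr2c and is known from brain, was between 4.69 and 4.94 in the 6 mice. Snord118 (U8), which acts in the maturation of the large subunit's RNA, was between 4.64 and 4.88. A further 46 probe sets named a snoRNA beside other genes and were left out, since their values cannot be given to 1 gene.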

How the data were processed

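Total RNA from whole blood of 3 EE and 3 SE mice was labelled as sense-strand cDNA and hybridized to Affymetrix Mouse Gene ST arrays. The authors used RMA (affy, Bioconductor) for normalization, and the deposited values are log2 intensities in 1 column per mouse. RMA makes the arrays' distributions alike, so a shift in total RNA is removed. The annotation used here is of the 2.0 ST design, while the methods name 1.0 ST, and it gave 1 symbol to 23521 probe sets, several to 1820 and none to 16004. Columns were matched to mice by accession. Values of probe sets with an Entrez ID and a mean of at least 100 on the linear scale went into a moderated linear model without covariates (limma 3.58.1, R 4.3.3), and p-values were adjusted by Benjamini-Hochberg over all 6154 probe sets. The fit was tested on simulated data. The study's unadjusted threshold of 0.05 was kept. Genes named are those past the test or without overlap, those with the highest means by class, the widest and narrowest ranges and those next to the minimum; the others named (Snord11, Snora28, Snord71, Snord17, Snora75, Snora35, Snord118 and members that share a spanning gene) were chosen after their values were seen. The members and lists were chosen with earlier results of these data known. A spanning gene is one whose RefSeq span (GRCm38.p6) holds the snoRNA; strand was not used, and all 78 genes were located. The spanning gene of 1 snoRNA is not reported here. Promoter windows matched 50 of 66 spanning genes. SnoRNA sequences were not used here. The alternatives tried were other minimums, Entrez filter, scalings, limma settings, a plain t-statistic, a replicate block, the mean of a gene's probe sets and each mouse left out.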

Additional observations from a re-analysis of the deposited data

How the results depend on the processing

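The counts of 2 genes higher and 0 lower at unadjusted p under 0.05 moved with some settings. Array weights gave 6 higher and 2 lower (Snord17 and Snord53), against 658 higher and 462 lower of all 6154 probe sets, and Snord99 was not among the 6. The plain t-statistic gave 1 higher, again without Snord99, where 115 of all 6154 probe sets were. The fit with no expression minimum gave 3 higher and 1 lower of 78 genes, where 404 and 439 of all 25341 probe sets were. With each mouse left out in turn, 1 to 10 were higher, the most without EE mouse 3 and the fewest without SE mouse 1 or SE mouse 3, and 0 to 2 were lower. Of all 6154 probe sets, 40 (without SE mouse 3) to 411 (without EE mouse 3) were higher in these fits. Between 105 (without SE mouse 1) and 298 (without EE mouse 3) were lower. None of the snoRNA and scaRNA genes passed after adjustment under any setting run, the lowest adjusted p being 0.0854 under array weights, where 97 other probe sets passed. The median over the 33 genes was 0.33 without EE mouse 3 and -0.01 without SE mouse 1, and the box C/D minus H/ACA difference was -0.039 with no minimum. The cause of these changes was not tested. The mouse numbers did not pair the samples (correlations of deviations for equal numbers -0.26, 0.06 and -0.31). A fit with the mouse number as a replicate block gave 2 genes higher and 0 lower, against 73 and 144 of all 6154 probe sets. Its medians were 0.11 over all genes, 0.20 for box C/D and 0.11 for H/ACA snoRNAs, 0.10 apart.

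Signs turned for 12 genes, among them Snord53, Snord13 and Snora33 with differences of -0.67, 0.48 and 0.22 with all mice. Scarna2 was at 0.021 with equal array medians, 0.029 with quantile normalization and 0.16 with array weights. Snora61 was at 0.029 and 0.027, and Snora73b at 0.030 and 0.015, with equal medians and quantile normalization in that order. With 1 mouse left out, the lowest and highest log2 differences were -0.12 and 0.41 for Snora33, -0.090 and 0.34 for Snora21, -0.25 and 0.35 for Snora44, -0.14 and 0.24 for Scarna17, -0.052 and 0.28 for Scarna6, -0.18 and 0.26 for Scarna2, -1.25 and 0.32 for Snord53, -0.010 and 1.06 for Snord13, -0.066 and 0.036 for Snora61, -0.13 and 0.029 for Snord8, -0.044 and 0.15 for Snord83b, and -0.14 and 0.10 for Snora73b. The 3 mice a group limit the precision, and the arrays give no depth.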
